A study of Homo sapiens with 6 samples.

Results

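The 10 genes described here, NDRG1, STC1, HILPDA, BNIP3, BNIP3L, PLOD2, FAM162A, VEGFA, P4HA1 and ANKRD37, are known targets of the hypoxia-inducible factors outside glycolysis. They were taken by gene symbol from a table of 61806 genes, each symbol matched 1 row, and all 10 passed the filter on low counts. They were chosen by function, several of them also selected on their higher counts and FPKM in GFP-812 than in GFP libraries. Their values and calls in this contrast are therefore given as a description, and no call of a member is read as a test. RNA was sequenced from the human embryonic kidney cell line 293T, in 3 libraries from cells given a GFP-812 plasmid and 3 from cells given a GFP plasmid. GFP, green fluorescent protein, is named in the plasmids of both groups. The cells were transfected with the lipid reagent Lipo2000, and the share of cells that took up a plasmid is not given. The labels do not say what the suffix of GFP-812 stands for, the series title concerns truncated NEK1, and no label names a change of oxygen. In bulk RNA, a change in fewer cells and a smaller change in every cell cannot be told apart.

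The hypoxia-inducible factors are transcription factors made of an oxygen-labile alpha subunit, such as the product of HIF1A, and the stable partner ARNT. At normal oxygen, prolyl hydroxylases of the EGLN family mark the alpha subunit for destruction through the VHL ubiquitin ligase. When oxygen or the hydroxylases fail, the alpha subunit persists and the dimer binds short response elements with an RCGTG core (R is A or G) near its targets. The targets outside glycolysis include secreted factors, mitochondrial membrane proteins, collagen-modifying enzymes and lipid droplet proteins.

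The promoter sequences were examined for this core because it is what the factors read. RefSeq windows of 300 bases, running 250 bases before to 50 after the gene start (GRCh38.p14), were matched for 5 of the 10 members: BNIP3, FAM162A, PLOD2, ANKRD37 and P4HA1. Each of the 5 windows held ACGTG on at least 1 strand, against 25.1% of 17064 windows of genes tested and 59.5% of 42 windows of the other HIF-induced genes listed for comparison. ACGTG or GCGTG, searched on both strands, was present in 60.1% of the windows of genes tested. The median GC content was 70.3% in the members' windows and 64.7% in those of genes tested. The members were named for being targets of these factors, so a response element near them is no independent finding.

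The 250 bases before the start of BNIP3, FAM162A and P4HA1 are shown, 5′ to 3′ on the strand of the gene, because these windows hold the most, the next most and the fewest cores. Capitals mark ACGTG or GCGTG, or their complements CACGT and CACGC where the core lies on the other strand.
BNIP3 (chr10:131981924-131982173, minus strand): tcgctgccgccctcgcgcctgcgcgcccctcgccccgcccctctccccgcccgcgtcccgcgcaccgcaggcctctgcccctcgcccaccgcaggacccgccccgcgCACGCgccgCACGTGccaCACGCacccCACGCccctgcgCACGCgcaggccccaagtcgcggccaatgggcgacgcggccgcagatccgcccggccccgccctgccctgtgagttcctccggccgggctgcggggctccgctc
FAM162A (chr3:122383932-122384181, plus strand): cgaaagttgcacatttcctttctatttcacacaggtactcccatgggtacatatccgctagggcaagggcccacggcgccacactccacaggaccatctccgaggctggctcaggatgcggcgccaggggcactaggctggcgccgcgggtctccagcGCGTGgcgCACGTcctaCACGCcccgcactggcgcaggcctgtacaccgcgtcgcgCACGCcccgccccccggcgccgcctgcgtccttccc
P4HA1 (chr10:73096867-73097116, minus strand): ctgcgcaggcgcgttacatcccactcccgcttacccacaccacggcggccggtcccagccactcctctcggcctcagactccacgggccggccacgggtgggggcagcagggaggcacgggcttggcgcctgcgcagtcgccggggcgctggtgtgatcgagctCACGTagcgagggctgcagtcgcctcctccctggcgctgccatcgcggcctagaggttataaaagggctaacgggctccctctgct
BNIP3 held 6 cores, 4 of them GCGTG and 5 on the strand opposite to the gene, all with centres at -141 to -102 bases from the start. Its CACGTG, a palindrome, is counted on both strands. FAM162A held 4 cores and P4HA1 held 1, and PLOD2 and ANKRD37 held 3 each, with a CACGTG in ANKRD37. At least 6 cores were found in 1.27% of windows of genes tested, and a CACGTG in 9.08%. A match to these letters is not a shown binding site.

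**Figure D1:**
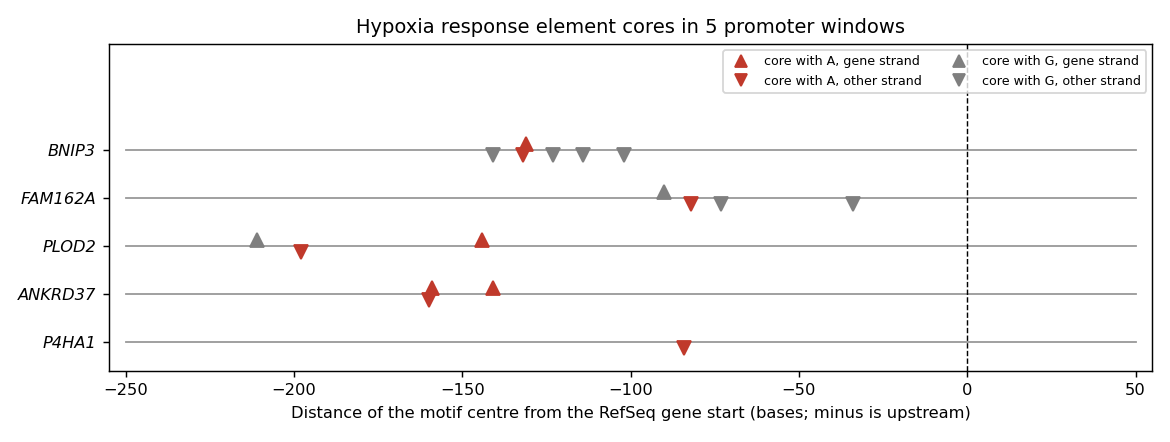
Positions of ACGTG (red) and GCGTG (grey) cores in the promoter windows of 5 genes, by distance in bases from the RefSeq gene start, on the strand of the gene (upward triangles) or the other strand (downward). All cores lie upstream of the start, 6 in BNIP3 and 1 in P4HA1.

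Libraries held 14255148 to 17613814 counts. NEK1 was at 524.9 ± 35 FPKM (fragments per kilobase of exon, scaled to the library total) in GFP-812 libraries and 3.91 ± 0.085 FPKM in GFP libraries (SD, n = 3 each), which fits the labels. Of 12 kidney and epithelial markers, 3 had a mean of at least 1 FPKM. The 12 summed to 29.2 to 32.1 FPKM in GFP-812 and 28.2 to 28.5 FPKM in GFP libraries. The 4 endothelial markers summed to at most 0.07 FPKM in any library. Of the 12 kidney and epithelial markers, KRT19, PAX8, CDH16, UMOD and SLC12A1 did not pass the filter, and UMOD was at 0 in every library. EPCAM, CDH1, KRT8, KRT18, PAX2, LRP2 and AQP1 passed, with LRP2 at a mean of 1.66 FPKM in GFP-812 and 1.4 FPKM in GFP libraries. Blood cell markers (6 genes) summed to 1.55 to 1.82 FPKM in GFP-812 and 0.65 to 1.67 FPKM in GFP libraries, and fibroblast markers (5 genes) to 1.92 to 2.44 FPKM in GFP-812 and 1.79 to 2.19 FPKM in GFP libraries, with 0 called in any of these lists. The labels do not say whether replicates were separate cultures, so the spread behind every p-value may be technical. Where values are given for each library, they run in the order of the replicate numbers.

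Together the 10 genes took 0.131%, 0.146% and 0.143% of all counts in the GFP-812 libraries, against 0.108%, 0.121% and 0.126% in the GFP libraries. All 10 fitted log2 fold changes (edgeR, GFP-812 over GFP) lay above 0, from 0.09 in VEGFA to 0.51 in NDRG1, with a median of 0.25 beside 0.01 over the 16834 genes tested. At an adjusted p under 0.05, edgeR called 7 of them risen, against 1.18% of all genes tested (3.84% were called in either direction), and in 6 the FPKM ranges of the groups did not overlap with GFP-812 higher, against 7.93% of all genes. Since the choice of members used this contrast, nothing is read from these counts. The 3 not called were BNIP3, VEGFA and ANKRD37.

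The replicate 1 libraries were low for these genes in both groups. GFP replicate 1 was the lowest GFP library for 10 of 10 members, against 34.8% of all genes tested. It was the lowest of all 6 libraries for 9, against 19.5% of all genes. GFP-812 replicate 1 was the lowest GFP-812 library for 9 of 10 members, against 35.8% of all genes. GFP replicate 3 was the highest GFP library for 8, against 33.1% of all genes. Relative to each gene's mean over the 6 libraries, the median member stood at 0.03, 0.19 and 0.15 log2 units in the GFP-812 libraries, and at -0.23, -0.09 and -0.03 in the GFP libraries. In 5 of 10 members the FPKM range within the GFP libraries was wider than the difference between the group means. The share of all genes for which this holds was not computed, so nothing is read from that count. Without GFP replicate 1, 4 members were called, namely NDRG1, PLOD2, FAM162A and P4HA1, and the median log2 fold change was 0.21. Of all genes tested, 78 were risen without that library, against 198 with all libraries. What sets the replicate 1 libraries apart, and its part in the differences between groups, was not tested.

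**Figure D2:**
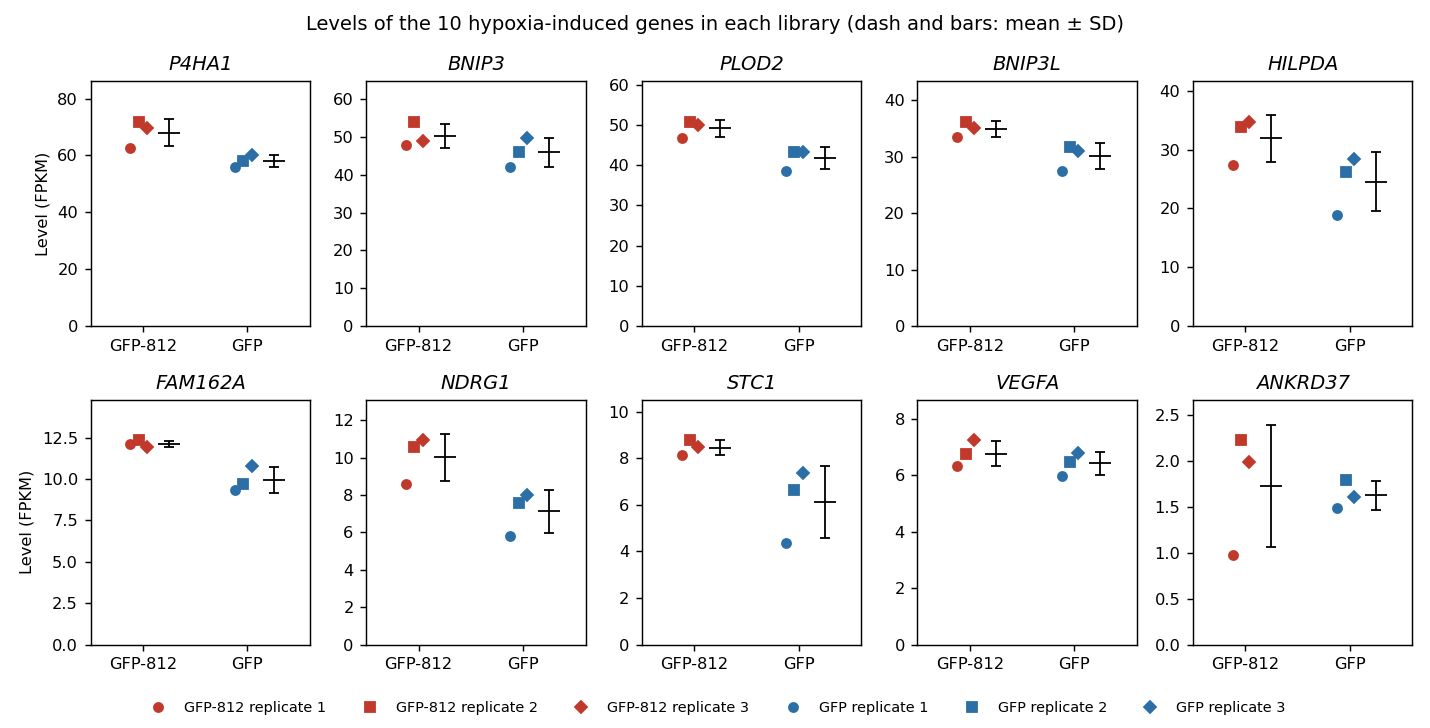
FPKM of each of the 10 genes in the GFP-812 libraries (red, left) and the GFP libraries (blue, right), with a symbol for each replicate number and the mean ± SD beside the points. The ranges of the groups are separate in P4HA1, PLOD2, BNIP3L, FAM162A, NDRG1 and STC1, and GFP replicate 1 is the lowest GFP library in every panel.

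**Figure D3:**
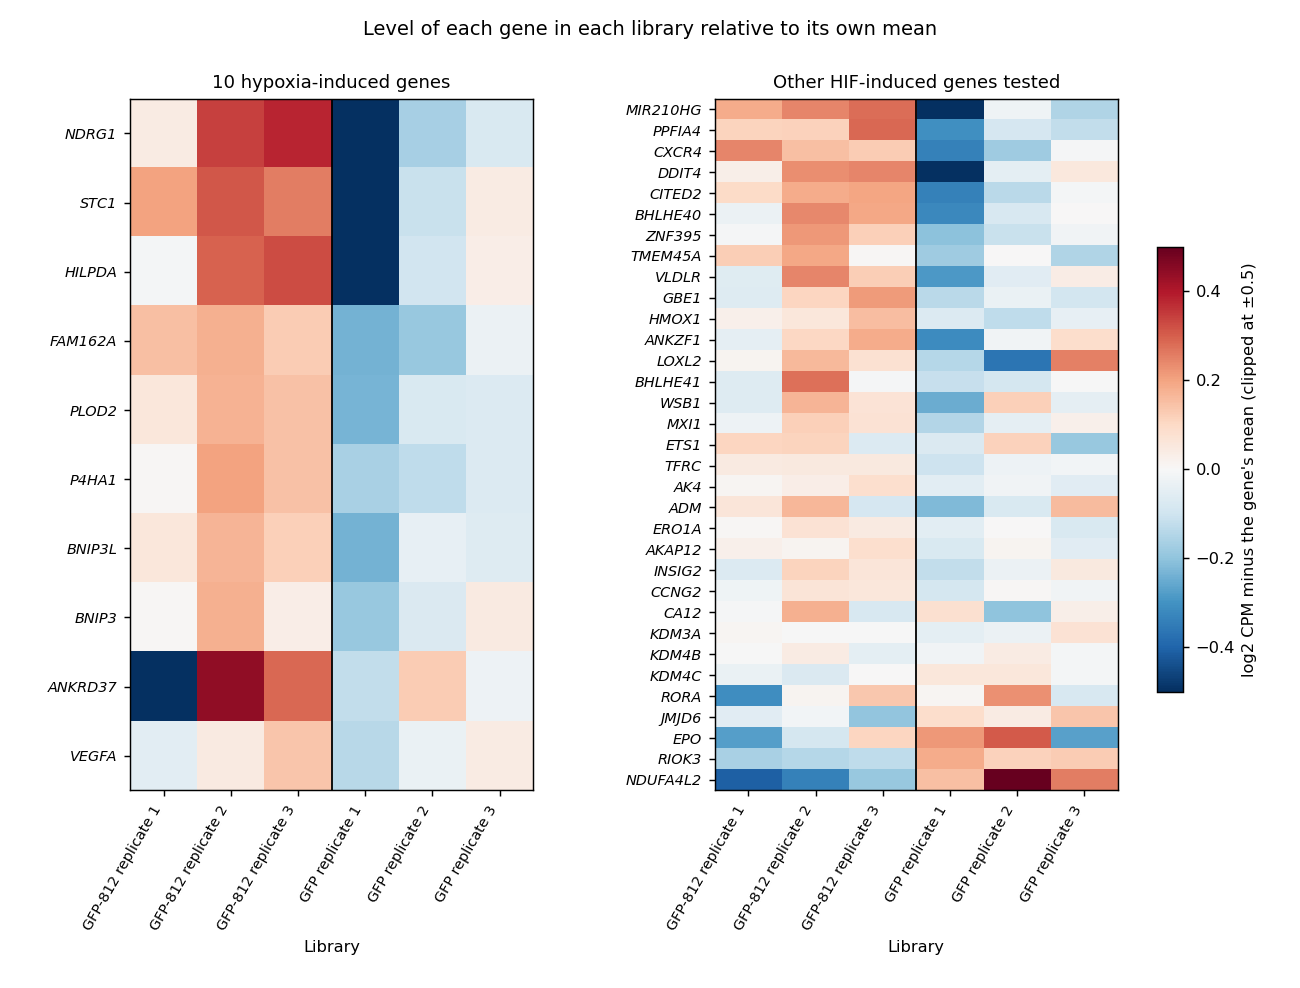
Log2 CPM (counts scaled to library size) minus each gene's mean over the 6 libraries, for the 10 genes (left) and for the other HIF-induced genes tested and reported here (right), in order of log2 fold change. GFP replicate 1 is the lowest of all 6 libraries for 9 of the 10 genes by FPKM, against 19.5% of all genes tested.

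Among the secreted factors, STC1 was higher in every GFP-812 library than in any GFP library, and VEGFA was not. STC1 (ENSG00000159167, hg38 chromosome 8, 23841929 to 23854806, minus strand) encodes stanniocalcin 1, a glycoprotein hormone first known for calcium and phosphate balance in fish. STC1 stood at 8.13, 8.77 and 8.49 FPKM in the GFP-812 libraries, and at 4.38, 6.65 and 7.36 FPKM in the GFP libraries. The GFP-812 libraries lay within 0.64 FPKM of each other, while the GFP libraries spanned 2.98 FPKM, more than the 2.33 FPKM between the group means. Its log2 fold change was 0.48 (SE 0.0965), and 0.29 without GFP replicate 1. VEGFA (ENSG00000112715, chromosome 6, 43770184 to 43786487, plus strand), the main growth factor of new blood vessels, stood at 6.32, 6.76 and 7.24 FPKM in the GFP-812 libraries, and at 5.97, 6.49 and 6.80 FPKM in the GFP libraries. Its groups overlapped, with a log2 fold change of 0.09 (SE 0.0542) that was 0.05 after leaving out either GFP-812 replicate 3 or GFP replicate 1. VEGFA had 1300 to 1841 counts per library.

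The mitochondrial members were the closely related receptors BNIP3 and BNIP3L, which sit in the outer membrane and bind LC3 and GABARAP proteins to bring mitochondria to autophagosomes, and FAM162A, a mitochondrial protein linked to hypoxia-induced cell death. FAM162A (ENSG00000114023, chromosome 3, 122384161 to 122412334, plus strand) stood at 12.1, 12.3 and 11.9 FPKM in the GFP-812 libraries, and at 9.31, 9.71 and 10.8 FPKM in the GFP libraries. The groups were separate, the GFP-812 libraries varied by 1.62% (coefficient of variation), the least of any member, and the log2 fold change was 0.30 (SE 0.0492). BNIP3L (ENSG00000104765, chromosome 8, 26383054 to 26505636, plus strand) stood at 33.5, 36.2 and 35.1 FPKM in the GFP-812 libraries, and at 27.4, 31.7 and 31.1 FPKM in the GFP libraries. Its groups were separate too (log2 fold change 0.23, SE 0.0491), and its call was lost when GFP-812 replicate 2 or GFP replicate 1 was left out. BNIP3 (ENSG00000176171, chromosome 10, 131967684 to 131981967, minus strand) stood at 47.9, 54.0 and 49.0 FPKM in the GFP-812 libraries, and at 42.1, 46.0 and 49.8 FPKM in the GFP libraries. GFP replicate 3 lay above 2 of the GFP-812 libraries. The log2 fold change of BNIP3 was 0.14 (SE 0.0478), 0.09 after leaving out either GFP-812 replicate 2 or GFP replicate 1, and 0.20 with GFP replicate 3 left out, where it was called. The table lists 39 BNIP3 pseudogenes with 76 counts in all libraries together, against 18660 for BNIP3, so few reads were assigned to those copies.

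The collagen-modifying members P4HA1 and PLOD2 were among the highest of the 10 by FPKM and kept separate groups. P4HA1 (ENSG00000122884, chromosome 10, 73007217 to 73096974, minus strand) encodes a catalytic alpha subunit of the prolyl hydroxylase that stabilises the collagen triple helix. P4HA1, the highest member, stood at 62.8, 71.8 and 69.5 FPKM in the GFP-812 libraries, and at 56.05, 58.1 and 60.2 FPKM in the GFP libraries. The lowest GFP-812 library was above the highest GFP library, and the log2 fold change was 0.24 (SE 0.0452), between 0.20 and 0.29 without any 1 library. PLOD2 (ENSG00000152952, chromosome 3, 146069440 to 146163653, minus strand), a lysyl hydroxylase whose products set the type of collagen cross-link, stood at 46.8, 50.8 and 50.1 FPKM in the GFP-812 libraries, and at 38.5, 43.3 and 43.4 FPKM in the GFP libraries. Its log2 fold change was 0.25 (SE 0.0417), the smallest SE of the 10, and it ranged from 0.20 to 0.28 without any 1 library. PLOD2 had the profile nearest to the median member, at a root mean square distance of 0.0223 log2 units over the 6 libraries, and ANKRD37 the farthest, at 0.337.

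HILPDA, NDRG1 and ANKRD37 stand for other functions. HILPDA (ENSG00000135245, chromosome 7, 128455849 to 128458418, plus strand) encodes a small lipid droplet protein that inhibits the triglyceride lipase PNPLA2. HILPDA stood at 27.4, 33.8 and 34.7 FPKM in the GFP-812 libraries, and at 18.9, 26.2 and 28.5 FPKM in the GFP libraries. The groups overlapped because GFP-812 replicate 1 lay below GFP replicate 3. The log2 fold change was 0.40 (SE 0.0797), and 0.25 without GFP replicate 1. NDRG1 (ENSG00000104419, chromosome 8, 133237175 to 133302022, minus strand), a cytoplasmic protein induced by hypoxia and other stresses, stood at 8.60, 10.6 and 10.9 FPKM in the GFP-812 libraries, and at 5.82, 7.56 and 8.0 FPKM in the GFP libraries. The lowest GFP-812 and the highest GFP library lay close but did not overlap. NDRG1 had the largest log2 fold change of the 10, 0.51 (SE 0.0671), with 0.39 without GFP replicate 1. The SEs given for members are edgeR's, and DESeq2's were wider, at 0.1655 for NDRG1, 0.2191 for STC1 and 0.2012 for HILPDA. DESeq2 called NDRG1 but not STC1 or HILPDA. Because members were selected on this contrast, a call kept or lost is a description of the fit. ANKRD37 (ENSG00000186352, chromosome 4, 185396021 to 185400628, plus strand), an ankyrin repeat protein, was the lowest member, at 0.97, 2.22 and 1.99 FPKM in the GFP-812 libraries, and at 1.48, 1.79 and 1.6 FPKM in the GFP libraries. GFP-812 replicate 1 was the lowest of all 6 libraries and the other 2 GFP-812 libraries were the highest. With 31 to 79 counts per library, its log2 fold change of 0.11 had an SE of 0.226, and it was -0.10 when GFP-812 replicate 2 was left out, 0.38 when GFP-812 replicate 1 was and 0.05 when GFP replicate 1 was.

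**Figure D4:**
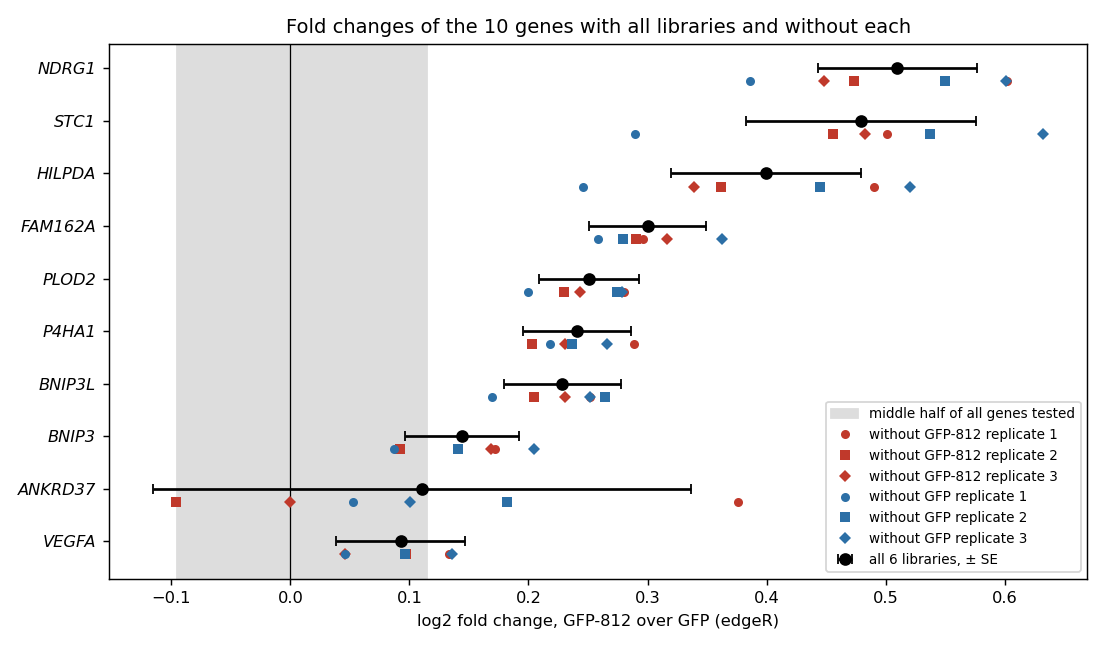
Log2 fold change of each gene, GFP-812 over GFP, with its SE (black) and without each library in turn (coloured), over a grey band that holds the middle 50% of the 16834 genes tested (-0.10 to 0.11). Leaving out GFP replicate 1 gives the lowest value for STC1 (0.29), HILPDA (0.25), NDRG1 (0.39), BNIP3 (0.09), BNIP3L (0.17), PLOD2 (0.20) and FAM162A (0.26). VEGFA, P4HA1 and ANKRD37 are lowest without another library.

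Some members share ground with other genes in the table. BNIP3L overlaps PNMA2 on the opposite strand (up to 758 counts in a library), as FAM162A does WDR5B (up to 190) and ANKRD37 does UFSP2 (up to 385). HILPDA overlaps HILPDA-AS1, placed on the same strand by the table, with 45, 41 and 67 counts in the GFP-812 libraries and 19, 39 and 58 in the GFP libraries. Whether the counting used strand is not given in the sources used here, so reads of overlapping genes could not be told apart with certainty.

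By level, the members ran from P4HA1 through BNIP3, PLOD2, BNIP3L, HILPDA, FAM162A, NDRG1, STC1 and VEGFA to ANKRD37, averaging each gene over both groups in FPKM, which is per exon length. The neighbours BNIP3 and PLOD2 (50.3 ± 3.26 and 49.2 ± 2.13 FPKM in GFP-812 libraries, 45.9 ± 3.85 and 41.7 ± 2.79 FPKM in GFP libraries, SD, n = 3 each) had overlapping ranges in both groups. BNIP3L and HILPDA also overlapped in both groups, at 34.9 ± 1.36 and 32.0 ± 3.99 FPKM in GFP-812 libraries and 30.1 ± 2.32 and 24.5 ± 5.00 FPKM in GFP libraries (SD, n = 3 each). The order of NDRG1, STC1 and VEGFA in the GFP libraries (7.13 ± 1.15, 6.13 ± 1.56 and 6.42 ± 0.419 FPKM, SD, n = 3) was within their spread.

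Of 38 other HIF-induced genes outside glycolysis, none a member, 34 were tested and 7 rose, 1 fell and 26 did not pass edgeR's test (adjusted p under 0.05, adjustment over every gene tested). The background was 1.18% of genes risen and 2.67% fallen, and the median log2 fold change was 0.10 for the 34 genes and 0.01 for all genes tested. Fitted values lay above 0 in 27 and below 0 in 7. In edgeR 17 of the 34 were at an unadjusted p under 0.05 (15 up and 2 down), against 16.1% of all genes tested. The FPKM ranges were separate with GFP-812 higher in 7 of the 34, against 7.93% of all genes, and with GFP-812 lower in 3, against 12.1%. This list was written with results of these data known.

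The risen genes included CITED2, DDIT4, BHLHE40, PPFIA4, CXCR4 and ZNF395. CITED2, which competes with the alpha subunit for the coactivator EP300, was at 42.2 ± 1.69 FPKM in GFP-812 libraries and 34.2 ± 3.95 FPKM in GFP libraries (SD, n = 3 each; log2 fold change 0.32, SE 0.0565, edgeR adjusted p = 0.000177). DDIT4, an inhibitor of the mTORC1 kinase, was at 101 ± 8.41 FPKM in GFP-812 libraries and 81.3 ± 16.2 FPKM in GFP libraries (SD, n = 3 each; log2 fold change 0.32, SE 0.0643, edgeR adjusted p = 0.000938). BHLHE40, a transcriptional repressor, had a log2 fold change of 0.27, and the synaptic scaffold gene PPFIA4, the chemokine receptor CXCR4 and ZNF395 had 0.35, 0.34 and 0.22. The kinase gene RIOK3 fell, at 19.2 ± 0.285 FPKM in GFP-812 and 23.6 ± 0.515 FPKM in GFP libraries (SD, n = 3 each; log2 fold change -0.29, SE 0.0494, edgeR adjusted p = 0.000114). Genes of the list that did not pass included ADM at 0.09, ERO1A at 0.08 and KDM3A at 0.0034 (log2 fold changes; adjusted p = 0.705, 0.319 and 0.983 in edgeR).

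Most calls on this list depended on single libraries, and GFP replicate 1 was the lowest of all 6 libraries for 21 of the 34 genes (61.8%, against 19.5% of all genes tested). With GFP replicate 1 left out 1 gene was risen, with GFP-812 replicate 2 left out 3 and with GFP-812 replicate 3 left out 4. Over all genes tested, 78, 62 and 84 were risen in these fits, against 198 with all libraries. With GFP replicate 2 left out 5 of the list were risen, with GFP-812 replicate 1 left out 7 and with GFP replicate 3 left out 9. Over all genes tested, the latter fits gave 109, 136 and 507 risen. DESeq2 on all libraries called 3 risen, namely CITED2, PPFIA4 and CXCR4. It did not call DDIT4 (DESeq2 adjusted p = 0.299), BHLHE40 (0.183) or ZNF395 (0.064). Limma on log2(FPKM + 1) called 0 of 31 genes of the list, with CITED2 at 0.239 and RIOK3 at 0.1825 (limma adjusted p). The other adjusted p-values of this paragraph are from edgeR. In edgeR, CITED2 and RIOK3 kept their calls without each of the 6 libraries in turn. DDIT4 was at 0.17 without GFP replicate 1 (adjusted p = 0.0776). Leaving out GFP replicate 1 also ended the calls of BHLHE40 (adjusted p = 0.119), PPFIA4 (0.0885) and CXCR4 (0.189). BHLHE40 was not called either with GFP-812 replicate 2 left out (0.113), nor PPFIA4 with GFP-812 replicate 3 left out (0.0984). CXCR4 stayed called only when replicate 3 of GFP-812 or of GFP was the one left out (0.0559 to 0.189 otherwise). ZNF395 kept its call only when replicate 1 of GFP-812 or replicate 3 of GFP was the one left out (adjusted p = 0.102 to 0.336 otherwise).

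**Figure D5:**
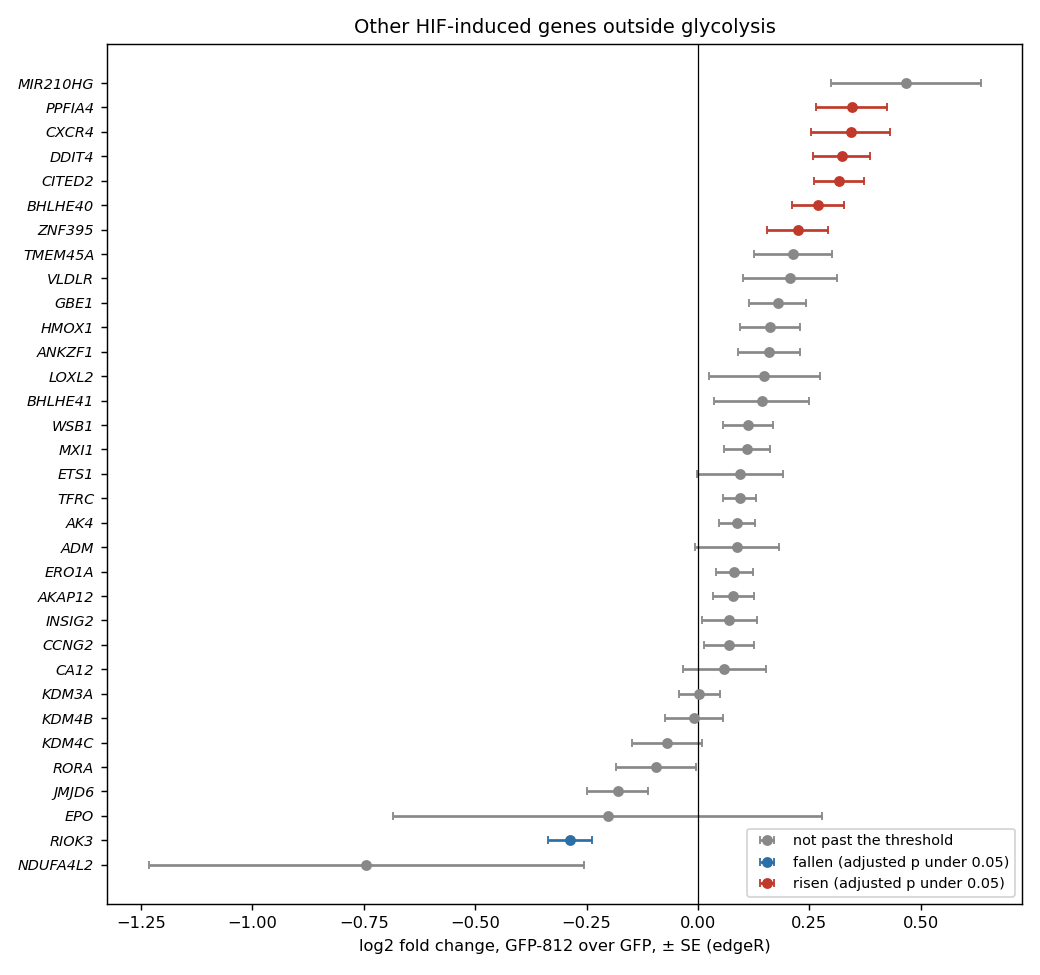
Log2 fold change, GFP-812 over GFP, with its SE for the other HIF-induced genes tested and reported here, coloured by edgeR's call at an adjusted p under 0.05. Risen genes are in red and the 1 fallen gene, RIOK3, in blue.

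The genes that make up and control the factor itself were mixed. Of 16 subunits, hydroxylases, ligase parts and coactivators, all tested, 1 rose, 2 fell and 13 did not pass, with a median log2 fold change of -0.00087. Of all genes tested, 1.18% rose and 2.67% fell. In edgeR 8 of the 16 were at an unadjusted p under 0.05 (5 up and 3 down), against 16.1% of all genes tested. The coactivator EP300, an acetyltransferase, was at 8.29 ± 0.146 FPKM in GFP-812 and 10.4 ± 0.975 FPKM in GFP libraries (SD, n = 3 each; log2 fold change -0.31, edgeR adjusted p = 0.000109), and its relative CREBBP had -0.27 (adjusted p = 0.00466). ELOB, a subunit of the VHL ligase, was at 10.1 ± 0.0624 FPKM in GFP-812 and 8.44 ± 0.757 FPKM in GFP libraries (SD, n = 3 each; log2 fold change 0.26, edgeR adjusted p = 0.00916). HIF1A was at 39.6 ± 0.527 FPKM in GFP-812 and 41.6 ± 0.954 FPKM in GFP libraries (SD, n = 3 each), which did not pass (log2 fold change -0.06, edgeR adjusted p = 0.543), and ARNT, EPAS1 and the sensor EGLN1 had fold changes of 0.00087, -0.02 and -0.0026 on the log2 scale. The call of ELOB ended when replicate 2 of GFP-812 (adjusted p = 0.0741) or of GFP (0.103) was left out. That of CREBBP ended with GFP-812 replicate 2 (0.0726), GFP-812 replicate 3 (0.0888) or GFP replicate 1 (0.152) left out. Risen genes of this list numbered 3 without GFP replicate 3. Limma on log2(FPKM + 1) called 0 of the 14 genes it tested here, with EP300 at 0.213 (limma adjusted p). Messenger RNA does not show the level of the alpha subunit protein, which oxygen controls by degradation.

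Genes that work beside the members mostly did not pass, and of all genes tested 3.84% were called (1.18% risen and 2.67% fallen). Nothing is read from the lists with 0 called. Of the 3 other NDRG genes, NDRG3 rose, at 19.8 ± 1.14 FPKM in GFP-812 and 17.1 ± 0.443 FPKM in GFP libraries (SD, n = 3 each; log2 fold change 0.23, SE 0.0601, edgeR adjusted p = 0.0144), and NDRG2 and NDRG4 had 0.20 and 0.08 (adjusted p = 0.339 and 0.784). NDRG3 was not called without GFP-812 replicates 2 or 3 (0.0733 and 0.169), nor by limma on log2(FPKM + 1) (limma adjusted p = 0.217). The NDRG median of 0.20 was 0.09 without GFP replicate 1. Of 19 collagen-modifying enzymes other than the members, edgeR called 0, with 4 at an unadjusted p under 0.05 and a median log2 fold change of 0.06, DESeq2 called 1 and limma 0. Of all 16834 genes tested, 16.1% were at an unadjusted p under 0.05 in edgeR, and the count on this list was near that share. The nearest were the prolyl isomerase FKBP10 at 0.14, the cross-linking enzyme LOX at 0.24 and P4HA2, a second alpha subunit, at 0.18 (log2 fold changes; adjusted p = 0.057, 0.0615 and 0.169). All 3 were called risen without GFP replicate 3, and LOX also without GFP-812 replicate 1.

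Of 21 mitophagy genes tested of 22, edgeR called 0, with 3 at an unadjusted p under 0.05 (a share near the 16.1% of all genes) and a median log2 fold change of 0.02, and DESeq2 and limma each called 0. TBK1, a kinase of autophagy receptors, had a log2 fold change of -0.15 (adjusted p = 0.133), and was called without GFP-812 replicate 1 (-0.23, 0.0283). The autophagy receptor gene SQSTM1 had -0.12 (adjusted p = 0.254), at 9.80 ± 0.479 FPKM in GFP-812 and 10.8 ± 0.567 FPKM in GFP libraries (SD, n = 3 each). Of 15 lipid droplet genes tested of 19, edgeR called 0, with 3 at an unadjusted p under 0.05 (also near 16.1%) and a median of 0.02, and DESeq2 and limma each called 0. The coat protein gene PLIN3 had a log2 fold change of 0.23, PLIN1 of -0.62 and BSCL2 of 0.45 (adjusted p = 0.135, 0.228 and 0.232). PNPLA2, the lipase that HILPDA inhibits, was at 0.08 (adjusted p = 0.707). Of 9 VEGF and stanniocalcin relatives tested of 10, edgeR called 0, with 1 at an unadjusted p under 0.05 (against 16.1% of all genes) and a median of 0.03, and DESeq2 and limma each called 0. The receptor gene KDR had 0.71 (adjusted p = 0.133), at 0.47 ± 0.04 FPKM in GFP-812 and 0.287 ± 0.0289 FPKM in GFP libraries (SD, n = 3 each), FLT4 had 0.12 (0.458) and VEGFB 0.09 (0.772). STC2, the paralogue of STC1, was at 24.1 ± 0.842 FPKM in GFP-812 and 23.9 ± 0.954 FPKM in GFP libraries (SD, n = 3 each; log2 fold change 0.03, edgeR adjusted p = 0.844).

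The 5 genes whose profile over the 6 libraries lay nearest to the median of the members, among 6866 others with a symbol and a mean of at least 5 FPKM, were ZNF395, TSC22D3, PDK1, ENO2 and LAMB1. Nearness was the root mean square distance between profiles of log2 CPM, each centred on its own mean, and was 0.0255, 0.027, 0.0345, 0.0406 and 0.0407 log2 units, against a median of 0.161 over the genes compared. TSC22D3, a leucine zipper gene induced by glucocorticoids, stood at 33.5, 35.7 and 35.5 FPKM in the GFP-812 libraries, and at 27.1, 29.8 and 31.15 FPKM in the GFP libraries. PDK1, the kinase that restrains pyruvate dehydrogenase, and ENO2, a glycolytic enolase, had log2 fold changes of 0.22 and 0.26, and LAMB1, a laminin chain, 0.18. As genes picked for their likeness, they are a description with no test.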

How the data were processed

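RNA from 293T cells in 3 GFP-812 and 3 GFP libraries was enriched for poly(A) per the labels' protocols. The submitters' processing notes list HISAT2 2.2.1, HTSeq 0.6.1, cutadapt 1.9.1 and FastQC 0.10.1 and the build hg38. The strand setting and annotation release: not given in the sources used here. The authors deposited raw counts per gene and FPKM. Recomputing each FPKM from the deposited count, exonic size and library total returned 100% of values within 0.005.

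Counts were tested with edgeR 4.0.16 in R 4.3.3 (filterByExpr, TMM scaling, quasi-likelihood test, 2-sided, Benjamini-Hochberg over 16834 genes, threshold 0.05), fitted on the whole table. SEs were computed from the F statistic. The fitting steps were tested on simulated data. The members, the gene lists and the rule for named genes were chosen with earlier results of these data known. The rule took the members, NEK1, the 3 genes of each list with the smallest p plus any called up to 8, and the 5 nearest profiles (log2 CPM with a prior count of 2). Other genes are named for their role, and some results are not reported here. Alternatives were DESeq2 1.42.0, limma 3.58.1 on log2(FPKM + 1) or log2(FPKM + 0.1), other filters and scaling, a replicate block and leaving out each library. Promoters are RefSeq's.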

Additional observations from a re-analysis of the deposited data

How the results depend on the processing

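The median log2 fold change of the 10 genes was 0.25 and lay between 0.21 and 0.29 without each library. ANKRD37 ranged from -0.10 (GFP-812 replicate 2 left out; -0.00048 with GFP-812 replicate 3 left out) to 0.38, and VEGFB from -0.012 (GFP replicate 1 left out) to 0.16. Without each library in turn, risen and fallen genes numbered 62 to 507 and 147 to 810 of all genes, against 198 and 449, and called members 4 to 8, against 7. On the lists, risen genes numbered 1 to 9 (other HIF-induced), 0 to 3 (HIF subunits), 0 to 3 (collagen-modifying) and 0 to 1 (NDRG), and fallen genes 1 to 2 (HIF subunits) and 0 to 1 (mitophagy). DESeq2 called 123 genes risen, with 3 other HIF-induced and 1 collagen-modifying among them, and 5 members, without STC1 and HILPDA. Keeping genes that averaged 1 FPKM or more, edgeR called 2 HIF subunit and 2 collagen-modifying genes risen. Limma on log2(FPKM + 1) and on log2(FPKM + 0.1) called 3 risen genes and 1 fallen gene, with 1959 and 1916 at an unadjusted p under 0.05. It called 0 members (6 at an unadjusted p under 0.05), 0 other HIF-induced genes in either direction (9), 0 HIF subunit genes in either direction (5) and 0 NDRG genes (1). The cause was not tested. Correlations of deviations from group means over 12563 genes did not settle whether the replicate numbers pair the libraries. They were 0.0848, 0.00362 and 0.0231 for numbers 1, 2 and 3, and that of number 1 was the highest of any pair across the groups. GFP-812 replicate 2 correlated best with GFP replicate 3 (0.0256), and GFP-812 replicate 3 with GFP replicate 2 (0.0354). With the replicate block, 266 genes rose and 511 fell, 8 members were called (BNIP3 joined), and 2 HIF subunit and 2 collagen-modifying genes rose.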
